A study of Mus musculus with 12 samples.

Results

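The chromatin of 38 genes of T cell receptor (TCR) signalling was examined in invariant natural killer T (iNKT) cells of the thymus, from every accessible region that overlapped the body of one of these genes or the 10 kb on either side of it. The rule gave 600 of the 63309 regions in the table, and 458 of the 600 touched a gene body. Each region is 500 bp long, and coordinates are on mm10. Txk and Tec lie next to each other on chromosome 5 and share 8 regions, so the genes hold 608 gene-region pairs. Of these pairs, 111 lay within 1000 bp of a start site of the gene (called promoter regions here), 325 in introns, 30 in exons, 72 upstream and 70 downstream. Ubash3b had the most regions, 48, followed by Nfatc1 with 35 and Fyb with 30, whereas Themis had 1.

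Accessibility was measured by ATAC-seq, in which the transposase Tn5 cuts open chromatin, in iNKT1, iNKT2 and iNKT17 cells from the thymi of untreated C57BL/6 and Hivep3-/- mice aged 8 to 9 weeks. Hivep3-/- mice lack the zinc finger protein HIVEP3 on the C57BL/6 background, and wildtype C57BL/6 mice carried no altered allele. Each of the 6 groups had 2 libraries, which the labels number as mice although the thymi were pooled, so p-values measure the spread between these libraries, which may be technical. iNKT1 cells were sorted as CD122+ ICOS-, iNKT2 cells as CD122- ICOS+ Izumo1r+ CD138- and iNKT17 cells as CD122- ICOS+ Izumo1r- CD138+, from pooled thymi. The sorted subsets were put together for the Tn5 reaction and separated again by ICOS and CD138 alone, because the CD122 and Izumo1r signals were lost in the reaction.

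TCR signalling starts when Lck phosphorylates the receptor's CD3 chains and Zap70, whose substrates Lat and Lcp2 (SLP-76) assemble a complex that activates phospholipase C, Ras exchange factors and, through protein kinase C theta and calcineurin, the factors NF-kB and NFAT. Phosphatases, ubiquitin ligases and diacylglycerol kinases counter each step, and receptors such as CD5 and CD6 tune the strength of the signal. iNKT cells are selected by strong TCR signals, and their subsets are known to differ in how strongly they signal.

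The values are log2 insertions per kb, normalised by the authors with voom, and their quartiles are nearly the same in every library. The libraries had nearly the same sum (1915051 to 1919037 insertions per kb over all regions), so their depth cannot be read from the sums. Deeper libraries take more separate values among their low regions, and below the median region the Hivep3-/- iNKT17 libraries took the fewest (85 and 73) and the second Hivep3-/- iNKT1 library the most (491). Promoters of 5 of 5 iNKT1 markers and 6 of 6 iNKT17 markers were higher in all 4 libraries of their own subset than in the other 8, against 2 of 5 iNKT2 markers. Of the 4 B cell and 4 myeloid markers, 2 and 1 had a promoter region in the table, and these were accessible in all libraries. The myeloid one, Spi1, averaged 5.20 and 5.29 in C57BL/6 and Hivep3-/- iNKT1, 4.81 and 4.53 in iNKT2 and 4.18 and 4.24 in iNKT17 cells, with the 4 iNKT1 libraries above the other 8. The B cell marker Pax5 averaged 2.92 and 3.54 in iNKT1, 4.46 and 4.56 in iNKT2 and 4.43 and 4.61 in iNKT17 cells, and Ebf1 between 2.74 and 3.33 in the 6 groups. The part of these cells in the results, the member regions higher in iNKT1 included, was not tested. The 21 regions of the Hivep3 locus differed between genotypes by median log2 values of 0.32, -0.10 and 0.29 (iNKT1, iNKT2, iNKT17), which does not check the deletion, since the deleted part was not given in the sources used here.

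The TCR signalling regions were well represented in every library. Their median over all libraries was 3.93 on the log2 scale, against 3.76 over all regions of the table, and 395 of the 600 (65.8%) reached 5 insertions per kb in all 12 libraries, against 61.2% of all regions. The 2 libraries of a group differed at the median member region by 0.13 to 0.23 on the log2 scale. At that region the genotype means differed by 0.18 for iNKT1, 0.24 for iNKT2 and 0.22 for iNKT17. The C57BL/6 subset means differed by 0.54 for iNKT1 and iNKT2, 0.72 for iNKT1 and iNKT17 and 0.60 for iNKT2 and iNKT17.

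The central 300 bases are shown for 6 regions, on the plus strand of GRCm38.p6 (mm10) in RefSeq. They were picked from regions with large differences between subsets or a called difference between genotypes. Some larger differences are not printed, such as that of Lat between C57BL/6 iNKT2 and iNKT17 (-7.10, against -5.34 for Sh2d2a). Capitals mark matches, on either strand, to 9 short motifs searched: Runt AACCACA, T-box AGGTGTGA, ETS AGGAAGT, TCF TCAAAGG, NFAT TTTTCCA, Egr GCGTGGGNG, ROR TNGGTCA, bZIP TGANTCA and the NF-kB motif. No printed stretch overlaps an annotated UTR.

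Cd6 (intron, higher in iNKT1), chr19:10815906-10816205: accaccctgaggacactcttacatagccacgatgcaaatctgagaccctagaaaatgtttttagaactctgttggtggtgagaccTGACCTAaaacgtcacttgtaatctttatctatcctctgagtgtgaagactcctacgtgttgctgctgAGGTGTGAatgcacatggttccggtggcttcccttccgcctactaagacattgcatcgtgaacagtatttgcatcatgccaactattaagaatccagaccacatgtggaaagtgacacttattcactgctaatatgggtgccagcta
Tec (upstream, higher in iNKT17), chr5:72874359-72874658: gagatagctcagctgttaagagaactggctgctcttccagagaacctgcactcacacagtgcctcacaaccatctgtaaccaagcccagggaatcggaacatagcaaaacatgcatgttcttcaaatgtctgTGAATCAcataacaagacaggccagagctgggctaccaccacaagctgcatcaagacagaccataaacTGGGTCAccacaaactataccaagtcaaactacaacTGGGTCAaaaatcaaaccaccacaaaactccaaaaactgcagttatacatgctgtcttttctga
Sh2d2a (downstream, higher in iNKT17), chr3:87857740-87858039: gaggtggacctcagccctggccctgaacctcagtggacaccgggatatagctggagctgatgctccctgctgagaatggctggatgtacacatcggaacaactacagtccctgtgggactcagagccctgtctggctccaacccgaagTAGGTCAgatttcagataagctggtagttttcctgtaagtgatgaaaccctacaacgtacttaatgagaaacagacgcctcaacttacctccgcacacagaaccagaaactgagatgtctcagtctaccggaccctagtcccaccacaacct
Csk (upstream, higher in iNKT2), chr9:57658723-57659022: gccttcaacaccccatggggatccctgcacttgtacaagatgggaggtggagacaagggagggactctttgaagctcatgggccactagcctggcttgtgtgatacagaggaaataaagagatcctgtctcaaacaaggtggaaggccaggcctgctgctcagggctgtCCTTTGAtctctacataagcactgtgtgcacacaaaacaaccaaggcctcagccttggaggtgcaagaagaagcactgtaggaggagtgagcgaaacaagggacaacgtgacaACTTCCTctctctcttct
Ubash3a (inside the gene, lower in Hivep3-/- iNKT2), chr17:31220082-31220381: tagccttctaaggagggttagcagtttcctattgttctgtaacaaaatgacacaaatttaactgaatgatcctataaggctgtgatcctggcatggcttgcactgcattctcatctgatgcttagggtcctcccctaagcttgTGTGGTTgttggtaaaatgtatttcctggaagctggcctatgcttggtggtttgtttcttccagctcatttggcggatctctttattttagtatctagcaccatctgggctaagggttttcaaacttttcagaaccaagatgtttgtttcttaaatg
Zap70 (inside the gene, higher in Hivep3-/- iNKT17), chr1:36777970-36778269: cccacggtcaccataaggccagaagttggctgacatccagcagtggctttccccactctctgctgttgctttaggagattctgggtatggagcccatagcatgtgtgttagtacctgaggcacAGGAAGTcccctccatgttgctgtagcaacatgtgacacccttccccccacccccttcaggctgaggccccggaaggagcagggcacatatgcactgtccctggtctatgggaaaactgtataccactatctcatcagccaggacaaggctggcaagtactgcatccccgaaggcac

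The Cd6 stretch, highest in iNKT1, holds 1 T-box match (bases 154 to 161) and 1 ROR match (86 to 92, minus strand). The Tec stretch, open in iNKT17 cells, holds ROR matches at bases 201 to 207 and 237 to 243 and a bZIP match at 133 to 139, and 101 of its bases are soft-masked as repeats in the assembly. The Sh2d2a stretch, also open in iNKT17 cells, holds 1 ROR match (149 to 155). In the iNKT2 region near Csk a TCF match (170 to 176) and an ETS match (283 to 289) were found, both on the minus strand. Of the stretches that differed between genotypes, the one in Ubash3a holds 1 Runt match (144 to 150, minus strand) and the one in Zap70 holds 1 ETS match (124 to 130). Over the central 300 bases of all regions, the share with a match was 2.08% for T-box, 11.9% for ROR, 11.5% for bZIP, 6.2% for TCF, 17.1% for ETS and 13.7% for Runt.

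The first question was how the TCR signalling genes differ between the mature subsets. A region was tested where either group averaged at least 5 insertions per kb, and was called at a Benjamini-Hochberg adjusted p under 0.1 (limma, over all tested regions) and at least 3-fold. Between C57BL/6 iNKT1 and iNKT17 cells 135 of 580 tested member regions were called, 23.3% against 20.5% of all tested regions. Of the 135, 106 (78.5%) were higher in iNKT1 and 29 in iNKT17, whereas 47.4% of the calls over all regions were higher in iNKT1. Of all tested regions 9.72% were called higher in iNKT1 and 10.8% higher in iNKT17. The median member difference was 0.45 on the log2 scale, against 0.01 over all regions. Between iNKT1 and iNKT2 cells 71 of 569 were called, 12.5% against 16% of all regions, 58 higher in iNKT1 (7.33% of all regions) and 13 in iNKT2 (8.71%). The share of calls higher in iNKT1 was 81.7%, against 45.7% over all regions. Between iNKT2 and iNKT17 cells 80 of 548 were called, 14.6% against 16.2%, 43 higher in iNKT2 (7.72% of all regions) and 37 in iNKT17 (8.49%). Here 53.8% of the calls were higher in iNKT2, against 47.6% over all regions. A region that passed the filter only through its higher group was bound to differ, so these counts describe the tested regions. The iNKT1 comparisons share the iNKT1 libraries and the iNKT17 comparisons share the iNKT17 libraries.

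**Figure D1:**
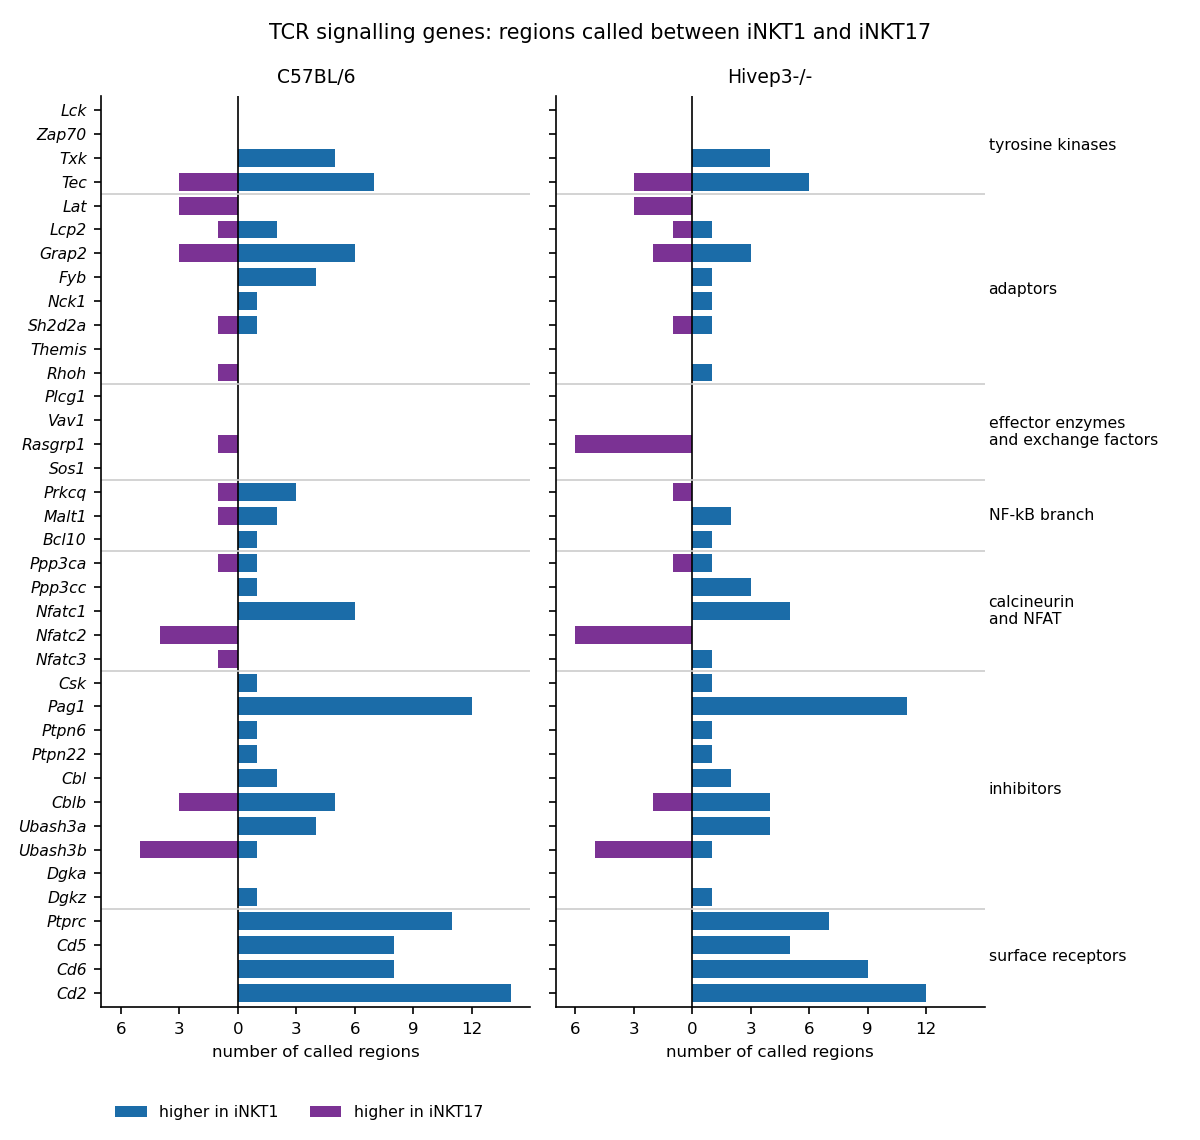
Number of regions of each TCR signalling gene called between iNKT1 and iNKT17 cells (x axis, counted to either side of 0), in C57BL/6 on the left and Hivep3-/- on the right, with genes grouped by role. Cd2 has 14 and Pag1 12 regions higher in iNKT1 in C57BL/6, whereas the called regions of Lat, Nfatc2 and, with 1 exception, Ubash3b were higher in iNKT17.

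Between iNKT1 and iNKT17 the calls in surface receptor genes were all in 1 direction. Of the 70 tested regions of Ptprc, Cd5, Cd6 and Cd2, 41 (58.6%) were called between C57BL/6 iNKT1 and iNKT17 cells, against 20.5% of all regions. These 41 were higher in iNKT1 (9.72% of all regions), with a median difference of 1.82 over the tested regions. Each of the 4 genes took part, with 14 of 16 regions in Cd2, 11 of 23 in Ptprc, 8 of 13 in Cd5 and 8 of 18 in Cd6. Between iNKT2 and iNKT17, 20 of 58 were called (34.5%, against 16.2% of all regions), all higher in iNKT2 (7.72% of all regions). Between iNKT1 and iNKT2, 14 of 71 were called (19.7% against 16%), 13 of them higher in iNKT1 (7.33% of all regions).

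Cd6 encodes a scavenger-type receptor that binds ALCAM and lowers TCR signalling. Its intronic region chr19:10815806-10816305, whose sequence is shown above, stood at 7.06 and 7.03 in C57BL/6 iNKT1, 5.51 and 5.10 in iNKT2 and 1.03 and 1.31 in iNKT17 libraries. The subsets did not overlap, and iNKT1 exceeded iNKT17 by 5.88 ± 0.35 (SE, adjusted p = 2.18e-08) on the log2 scale and iNKT2 by 1.74 ± 0.35 (adjusted p = 0.0011). In Hivep3-/- cells the order was the same, with 6.69 and 6.51 in iNKT1, 4.50 and 4.12 in iNKT2 and 1.95 and 0.40 in iNKT17 libraries. Another region, chr19:10780782-10781281, lies 3′ of Cd6 and 634 bp from a start site of A430093F15Rik, and was highest in iNKT2, at 4.87 and 5.00, against 2.50 and 2.80 in iNKT1 and 1.03 and 0.55 in iNKT17 C57BL/6 libraries. The 2 regions were thus ordered differently, while the start site of Cd6 itself was at 6.06, 5.85 and 5.19 in the 3 C57BL/6 groups.

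Cd2 encodes the adhesion receptor for CD48 in mice. Upstream of it, chr3:101292555-101293054 stood at 5.44 and 5.56 in C57BL/6 iNKT1, 2.51 and 2.95 in iNKT2 and 0.57 and 0.91 in iNKT17 libraries, and iNKT1 exceeded iNKT17 by 4.76 ± 0.23 (adjusted p = 3.08e-09). An intronic region, chr3:101277727-101278226, was open in iNKT1 libraries (4.07 and 4.48) and near 0 in both iNKT2 (0.20 and 0.35) and iNKT17 libraries (0.06 and 0.35). The region with the highest mean near a Cd2 start site averaged 5.68 and 5.83 in iNKT1 and iNKT2 but 3.74 in iNKT17, and was called in both comparisons with iNKT17. This Cd2 region, chr3:101280260-101280759, lies near a start site inside the gene, whose 5′ end is at 101287939. Cd2 and Themis were the only genes of the 38 whose strongest promoter region, at any start site, was called between C57BL/6 subsets.

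Cd5 encodes an inhibitory receptor whose level follows TCR signal strength in thymocytes. Its upstream region chr19:10742071-10742570, in an intron of a neighbouring gene, stood at 5.84 and 5.75 in C57BL/6 iNKT1, 4.75 and 4.94 in iNKT2 and 1.96 and 2.09 in iNKT17 libraries. The difference from iNKT17 was 3.77 ± 0.20 (adjusted p = 7.08e-09) for iNKT1 and 2.82 ± 0.20 (adjusted p = 1.65e-07) for iNKT2. Ptprc encodes CD45, the phosphatase that removes the inhibitory phosphate from Lck. The 11 Ptprc regions called were higher in iNKT1 than in iNKT17, and the median over its 23 tested regions was 1.52. The largest of these, intronic chr1:138127568-138128067, was at 3.10 and 2.22 in iNKT1 but at -2.41 and -1.65 in iNKT17 C57BL/6 libraries, where Hivep3-/- iNKT17 libraries stood at 1.66 and 0.40. The C57BL/6 difference of 4.69 was 2.55 with 1 insertion per kb added and 1.12 with 5 added, under the 3-fold minimum, and without the first C57BL/6 iNKT1 library the region was too low to be tested.

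**Figure D2:**
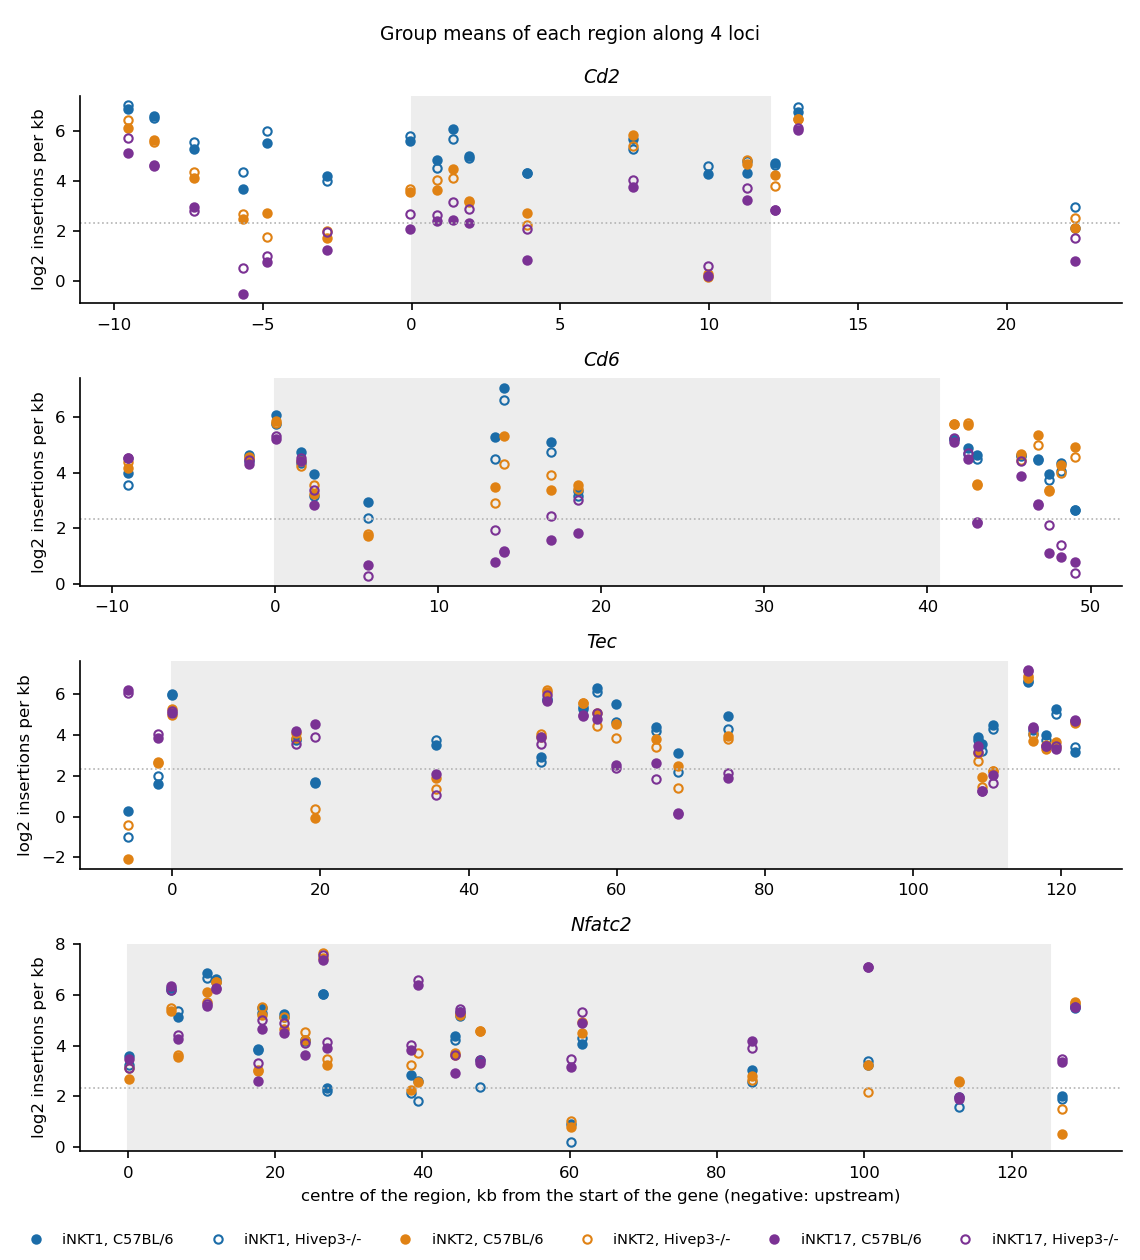
Group means (y axis, log2 insertions per kb) of each region along the Cd2, Cd6, Tec and Nfatc2 loci by distance of its centre from the start of the gene (x axis, kb), with the gene body shaded, the dotted line at 5 insertions per kb, filled points for C57BL/6 and open points for Hivep3-/-. In Cd2 the iNKT1 means lie above the iNKT17 means along the locus, whereas in Tec and Nfatc2 regions higher in iNKT17 lie between regions that are not.

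Among the tyrosine kinases, Lck (11 regions) and Zap70 (7 tested) had no region called between C57BL/6 subsets, with 8 and 4 of their regions higher in iNKT1 than in iNKT17 at any size. The Tec family kinases Txk and Tec, which act on phospholipase C gamma, differed more. Of 11 Txk regions 5 were called higher in iNKT1 than in iNKT17, and of 22 Tec regions 7 were higher in iNKT1 and 3 in iNKT17. The intronic Txk region chr5:72743058-72743557 stood at 5.73 and 5.80 in C57BL/6 iNKT1, 2.28 and 2.25 in iNKT2 and 0.18 and 1.54 in iNKT17 libraries, so that iNKT1 lay 4.91 ± 0.37 (adjusted p = 1.5e-07) above iNKT17.

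Tec held the largest member difference in the other direction. Its upstream region chr5:72874259-72874758, 5776 bp from the start site, stood at 6.25 and 6.19 in C57BL/6 iNKT17 libraries, at 0.15 and 0.36 in iNKT1 and at -1.06 and -3.12 in iNKT2. The Hivep3-/- iNKT17 libraries, at 6.13 and 6.00, were as high, and the other 4 Hivep3-/- libraries lay between -1.35 and 0.20. The difference between iNKT1 and iNKT17 was -5.96 ± 0.58 (adjusted p = 1.45e-06), and -3.68 with 5 insertions per kb added before the logarithm, which limits what very low values add. The Tec start site differed far less, at 6.05 in iNKT1, 5.28 in iNKT2 and 5.07 in iNKT17 C57BL/6 cells.

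The adaptors were mixed, with 14 of 113 tested regions called higher in C57BL/6 iNKT1 than in iNKT17 and 9 lower. Their share called was 20.4%, near the 20.5% of all regions (9.72% higher and 10.8% lower). Lat encodes the membrane scaffold for phospholipase C gamma, Grb2 and Gads. Its 3 called regions of 12 were higher in iNKT17, the largest being chr7:126374381-126374880, with 4.47 and 4.55 in C57BL/6 iNKT17 libraries and -3.79 to -1.01 in the other 4. This region lies 4811 bp upstream of Lat but 18 bp from the start site of Spns1, so it is also a promoter region of Spns1. Grap2 encodes Gads, which joins Lat to SLP-76. Upstream of Grap2, chr15:80565373-80565872 stood at 4.90 and 4.91 in iNKT1, 4.65 and 4.45 in iNKT2 and 0.18 and -0.41 in iNKT17 C57BL/6 libraries, and it lies 217 bp from the start site of Enthd1. Of the 9 called Grap2 regions 6 were higher in iNKT1 and 3 in iNKT17.

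Sh2d2a encodes the Lck-binding adaptor TSAd, and regions on either side of it were ordered oppositely. Downstream, chr3:87857640-87858139 stood at 7.14 and 7.23 in C57BL/6 iNKT17 libraries against 2.26 and 1.97 in iNKT1 and 2.03 and 1.66 in iNKT2, so that iNKT1 was 5.07 ± 0.27 lower than iNKT17 and iNKT2 5.34 ± 0.27 lower (adjusted p = 7.53e-09 and 1.82e-08). Upstream, chr3:87840833-87841332 stood at 5.38 and 5.47 in iNKT1 against 1.69 and 2.25 in iNKT2 and 1.40 and 1.25 in iNKT17. Between them the start site of the gene was at 8.15, 7.42 and 7.53 in iNKT1, iNKT2 and iNKT17 cells.

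Themis encodes a thymocyte protein needed for positive selection. Its single region, the promoter chr10:28668196-28668695, stood at 4.05 and 3.93 in iNKT1, 5.95 and 5.96 in iNKT2 and 5.31 and 5.02 in iNKT17 C57BL/6 libraries. It was 1.96 ± 0.14 lower in iNKT1 than in iNKT2 (adjusted p = 2.19e-07), and 2.30 ± 0.14 lower in Hivep3-/- cells (adjusted p = 3.59e-08). The order of the 3 subsets was the same in both genotypes, with no overlap between subsets. Fyb, which encodes the adaptor ADAP, had 4 of 30 regions higher in iNKT1 than in iNKT17, and Nck1 and Lcp2 had 1 and 2. Lcp2 also had 1 region lower in iNKT1 than in iNKT17. Rhoh, a GTPase without enzymatic activity that brings Zap70 to the receptor, had 1 region called lower in iNKT1 than in iNKT17, chr5:65902767-65903266, at -0.42 and 1.07 in iNKT1 and 3.53 and 4.13 in iNKT17 C57BL/6 libraries.

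**Figure D3:**
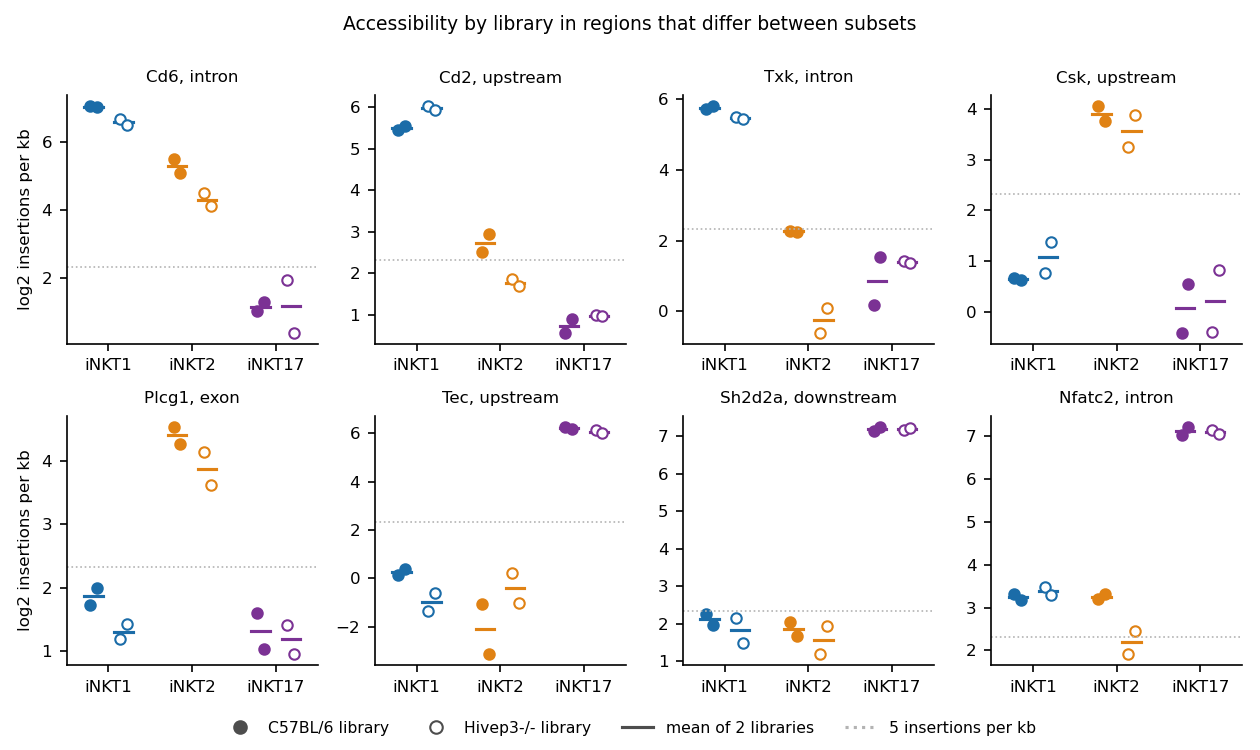
Values of 8 member regions (y axis, log2 insertions per kb, on a scale of its own in each panel) in each library of the 3 subsets (x axis), with filled points for C57BL/6, open points for Hivep3-/-, a bar at the mean of 2 libraries and a dotted line at 5 insertions per kb. The first 3 regions are highest in iNKT1, those of Csk and Plcg1 in iNKT2 and the last 3 in iNKT17, where the Sh2d2a libraries lie between 7.14 and 7.23.

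The effector enzymes and exchange factors had 1 of 41 tested regions called between C57BL/6 iNKT1 and iNKT17 (2.44%, against 20.5% of all regions), in Rasgrp1. Vav1 (8 regions) and Sos1 (7 regions), both exchange factors, had none called between C57BL/6 subsets, where their gene medians lay between -0.21 and 0.17. Rasgrp1, the diacylglycerol-dependent activator of Ras, had 3 of 10 regions lower in iNKT2 than in iNKT1 and 6 of 12 lower in iNKT2 than in iNKT17, and it gave the 6 lower calls of this role between iNKT2 and iNKT17. Its intronic region chr2:117333667-117334166 stood at 2.35 and 2.35 in iNKT1, -0.40 and -0.10 in iNKT2 and 4.06 and 4.59 in iNKT17 C57BL/6 libraries. iNKT2 was 4.57 ± 0.27 below iNKT17 (adjusted p = 4.55e-08). Plcg1, which encodes phospholipase C gamma 1, had an exonic region highest in iNKT2, chr2:160747828-160748327, at 4.52 and 4.27 against 1.73 and 2.00 in iNKT1 and 1.60 and 1.04 in iNKT17.

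In the NF-kB branch the median over the tested regions of Prkcq, Malt1 and Bcl10 was 0.82 between C57BL/6 iNKT1 and iNKT17, with 6 of 39 called higher and 2 lower. The share called was 20.5%, the same as over all regions. Prkcq, which encodes protein kinase C theta, had regions called in both directions, 3 higher in iNKT1 and 1 higher in iNKT17. The latter, chr2:11279716-11280215, was at 3.04 and 2.94 in iNKT17 and at 1.87 and 0.91 in iNKT1. Malt1, the paracaspase, had an internal promoter region at 3.79 and 3.41 in iNKT1, 2.03 and 2.19 in iNKT2 and 0.49 and 0.97 in iNKT17. Its strongest promoter region was at 7.93, 7.89 and 8.01 in these groups and was the strongest of the 38. Upstream of Bcl10, the adaptor that binds Malt1, 1 region was called higher in iNKT1 than in either other subset, at 3.39 and 2.94 against 1.34 and 1.04 in iNKT2.

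The called regions of Nfatc1 and Nfatc2 went in opposite directions. Nfatc1 had 6 of 34 regions called between C57BL/6 iNKT1 and iNKT17, all higher in iNKT1, and Nfatc2 had 4 of 22, all higher in iNKT17. Over their tested regions the genes were not opposite. The median difference was 0.73 for Nfatc1 and 0.065 for Nfatc2, with 30 of 34 and 12 of 22 regions higher in iNKT1 at any size. The intronic Nfatc2 region chr2:168500889-168501388 stood at 7.01 and 7.20 in iNKT17 libraries against 3.32 and 3.18 in iNKT1 and 3.20 and 3.31 in iNKT2, a difference of 3.85 ± 0.18 from either (adjusted p = 2.36e-09 and 1.02e-08). A second Nfatc2 intronic region, chr2:168561994-168562493, stood at 6.30 and 6.48 in iNKT17 against 2.47 and 2.74 in iNKT1. The strongest Nfatc2 promoter region, near a start site inside the gene, lay between 6.28 and 6.62 in the 3 groups and was highest in iNKT1. That of Nfatc1 averaged 5.61 in iNKT1, 6.05 in iNKT2 and 6.27 in iNKT17 C57BL/6 cells, so it was lowest in iNKT1. Neither was called between these subsets. Nfatc3 had 1 region called higher in iNKT17 than in iNKT1 (-1.65), which was -1.56 with 1 insertion per kb added, under the 3-fold minimum. Of the calcineurin subunits, Ppp3cc had 4 of 7 regions higher in iNKT1 than in iNKT2 and a gene median of 1.83 in that comparison. An intronic Ppp3ca region, chr3:136727250-136727749, was at 3.98 and 3.72 in iNKT1 and at -1.06 and -1.15 in iNKT17.

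The inhibitors had 28 of 186 tested regions called higher in C57BL/6 iNKT1 than in iNKT17 and 8 lower. Their share called was 19.4%, near the 20.5% of all regions (9.72% higher and 10.8% lower). Of the 10 genes, 8 had more regions called higher than lower. Pag1, the membrane anchor that holds Csk near Lck, had the most, 12 of 24, and a gene median of 1.47. Its intronic region chr3:9766940-9767439 stood at 4.08 and 4.58 in iNKT1, 5.10 and 5.36 in iNKT2 and 1.96 and 1.96 in iNKT17. The Lck-inhibiting kinase gene Csk had a region 4992 bp upstream that was open in iNKT2, chr9:57658623-57659122, with 4.05 and 3.76 in iNKT2, 0.67 and 0.63 in iNKT1 and -0.41 and 0.55 in iNKT17 C57BL/6 libraries. iNKT1 was 3.26 ± 0.46 below iNKT2 (adjusted p = 6.41e-05), and 2.49 ± 0.46 below it in Hivep3-/- cells (adjusted p = 0.000475). Dgkz, one of the kinases that remove diacylglycerol, had an upstream region with the same order, chr2:91979089-91979588, at 3.52 and 3.18 in iNKT2 and 1.39 or less in the other C57BL/6 libraries. Dgka, of the same family, had none of its 10 regions called.

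The paralogs Ubash3a and Ubash3b, which encode the suppressors of TCR signalling STS-2 and STS-1, differed in the direction of most called regions. Ubash3a had 4 of 9 regions called, all higher in iNKT1 than in iNKT17, and Ubash3b had 1 higher and 5 lower of 43. Their gene medians were 1.41 and -0.10, with 9 of 9 and 19 of 43 regions higher in iNKT1 at any size. The strongest promoter region of each was higher in iNKT1. In iNKT1 and iNKT17 C57BL/6 cells it averaged 5.69 and 5.19 for Ubash3a and 5.38 and 4.48 for Ubash3b, and neither was called. In Ubash3b, intronic chr9:41062526-41063025 stood at 4.34 and 4.46 in iNKT17 and at -1.72 and -0.67 in iNKT1, whereas chr9:41126120-41126619 was at 3.08 and 2.70 in iNKT1 and below 0 in both other subsets. The latter differed by 3.64 between iNKT1 and iNKT2, but by 1.15 with 5 insertions per kb added, under the 3-fold minimum. A further Ubash3b intronic region, chr9:41138974-41139473, was lowest in iNKT1, at 1.91 and 1.34, against 4.51 and 4.17 in iNKT2. Of the ubiquitin ligases, Cblb had 5 of 25 regions higher and 3 lower in iNKT1 than in iNKT17, and Cbl had 2 of 13 higher. The phosphatase gene Ptpn6 (SHP-1) had 1 intronic region higher in iNKT1, at 4.47 and 4.72 against 2.41 and 2.83 in iNKT17. Ptpn22, which encodes the Csk-binding phosphatase, had an upstream region at 4.01 and 4.07 in iNKT1 and at 1.74 and 1.69 in iNKT2.

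Each of the 38 genes had a promoter region, and the strongest per gene averaged between 4.44 (Ptprc) and 7.94 (Malt1) over all libraries, with a median of 5.97. The strongest was not always at the 5′ end of the gene. In Cd2, Fyb, Nfatc1, Nfatc2 and Ubash3b, among others, it lay near a start site inside the gene. Counting regions within 1000 bp of a start site of any gene, 12.7% of 166 tested member promoters were called between C57BL/6 iNKT1 and iNKT17 against 27.5% of 313 member introns. Over the whole table the shares were 7.95% and 29.6%.

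The motifs were also counted in the called regions over their whole 500 bp. Of the 29 member regions higher in C57BL/6 iNKT17 than in iNKT1, 16 (55.2%) held the ROR letters, against 35.7% of all regions called in this direction, 18.6% of all regions and 17.8% of the 394 members called in no comparison. Of the 106 member regions higher in iNKT1, 9 (8.49%) held the T-box letters, against 9.49% of all regions called in this direction and 2.91% of all regions. The TCF letters were in 17 of the 106 (16%), against 10.2% and 9.55%. The ETS letters were in 22 (20.8%), against 31.2% and 21.3%, and the Runt letters in 20 (18.9%), against 24.9% and 17.4%. These shares are descriptions of letters, and no test of them was made.

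The subset differences were then compared between genotypes, which share no library. Of the member regions called in C57BL/6, 52 of 71 for iNKT1 and iNKT2, 100 of 135 for iNKT1 and iNKT17 and 52 of 80 for iNKT2 and iNKT17 were also called in the same direction in Hivep3-/- cells. This is 73.2%, 74.1% and 65% of the C57BL/6 calls and 70.3%, 84% and 82.5% of the Hivep3-/- calls. Over all regions it was 69.7%, 76.2% and 73% of the C57BL/6 calls. The sign was the same in Hivep3-/- cells for each of the 71, 135 and 80 regions, and for 97.5%, 99.3% and 99.5% of all regions called in C57BL/6, so this is near the share over the table.

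**Figure D4:**
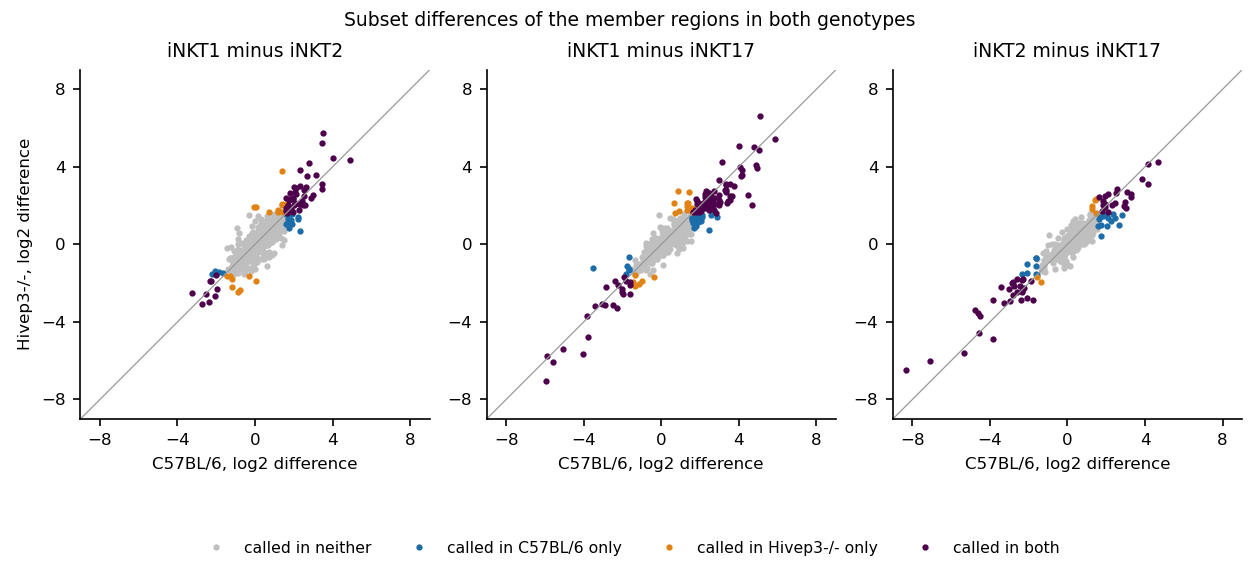
Log2 difference between subsets of each member region tested in both genotypes, in C57BL/6 (x axis) and in Hivep3-/- (y axis), for the 3 pairs of subsets, with the colour showing in which genotype the region was called and the line marking equal differences. Points called in either genotype lie along the line, and 100 regions were called in both for iNKT1 and iNKT17.

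In Hivep3-/- cells 119 of 582 member regions were called between iNKT1 and iNKT17 (20.4%, against 19.3% of all regions), 88 higher in iNKT1 (9.48% of all regions) and 31 in iNKT17 (9.83%). The other pairs gave 74 of 575 for iNKT1 and iNKT2 (12.9% against 17.3%) and 63 of 557 for iNKT2 and iNKT17 (11.3% against 15.6%). For the surface receptors 33 of 71 were called between iNKT1 and iNKT17 (46.5%, against 19.3% of all regions), again all higher in iNKT1, with a median of 1.32. Between iNKT2 and iNKT17 their count was 8 of 62 in Hivep3-/- cells (12.9%, against 15.6% of all regions). In C57BL/6 cells it was 20 of 58 (34.5% against 16.2%). Of the 72 surface receptor regions tested for a difference between the genotype changes of iNKT1 and iNKT17, 1 was called (1.39%, against 1.42% of all regions). Of the 65 tested for iNKT2 and iNKT17, 1 was called (1.54% against 1.02%). Both calls were the same Cd6 region described further on. Rasgrp1 had 6 of 13 regions higher in iNKT17 than in iNKT1, and Nfatc2 6 of 22.

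The next comparison asked how regulatory elements differ in the absence of HIVEP3. In iNKT1 cells limma called 0 of 561 member regions between genotypes (1.15% of all regions), and 94 (16.8%) had an unadjusted p under 0.05, against 17.8% of all regions. At an adjusted p under 0.1 and any fold there were 42 (7.49%, against 9.42% of all regions), 30 higher in Hivep3-/- cells (5.49% of all regions) and 12 lower. In iNKT2 cells 3 of 535 were called (0.561%, against 1.68% of all regions), all lower in Hivep3-/- cells (1.2% of all regions), and 92 passed at any fold (17.2% against 16.4%), 51 higher (8.26% of all regions) and 41 lower. In iNKT17 cells 2 of 511 were called (0.391%, against 0.271%), both higher (0.133% of all regions), and 44 passed at any fold (8.61% against 4.65%), 35 higher (2.66% of all regions) and 9 lower. The medians of the members were -0.01, 0.05 and 0.12 in iNKT1, iNKT2 and iNKT17. The strongest promoter region of each of the 38 genes, 1 region per gene, changed by at most 0.42 between genotypes. Other promoter regions changed more, among them that at the Rhoh start site (-1.92 in iNKT2). Of member regions within 1000 bp of any start site, 2 of 159 tested were called in iNKT2 (1.26%, against 0.411% of all such regions). In iNKT17 it was 1 of 156 (0.641% against 0.092%), and in iNKT1 0 of 163 (0.331% of all such regions).

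**Figure D5:**
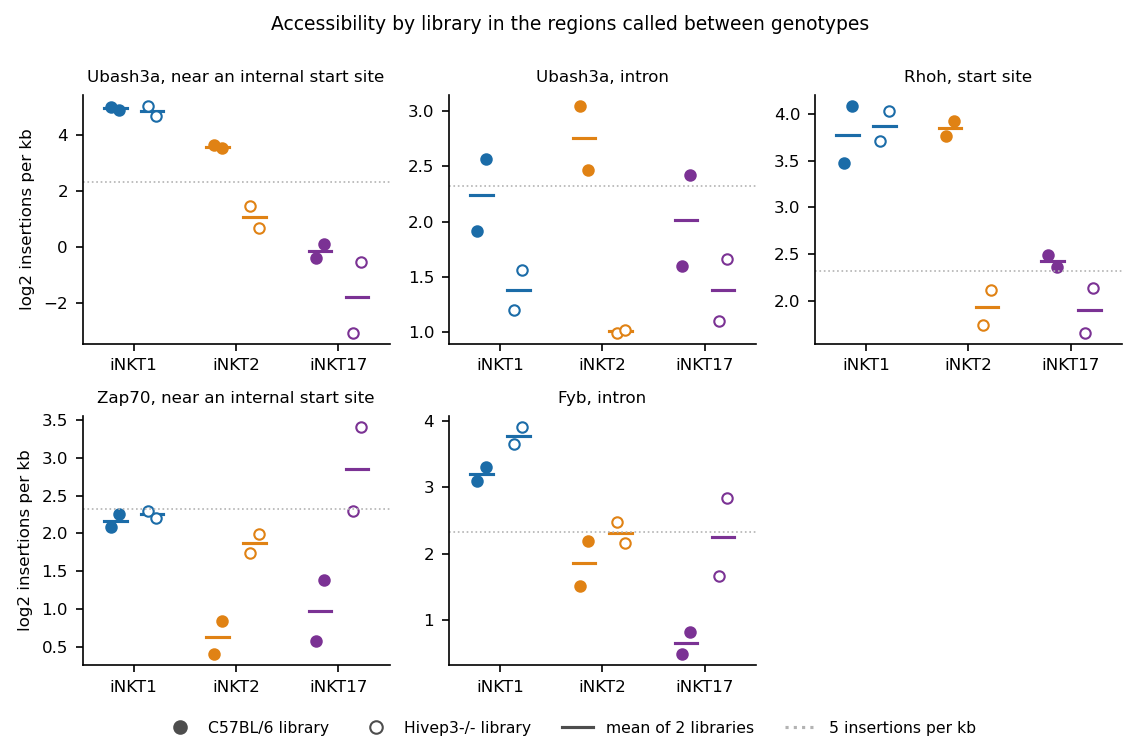
Values (y axis, log2 insertions per kb, on a scale of its own in each panel) of the 5 member regions called between genotypes, in each library of the 3 subsets (x axis), with filled points for C57BL/6, open points for Hivep3-/-, a bar at the mean of 2 libraries and a dotted line at 5 insertions per kb. In iNKT2 cells the Hivep3-/- libraries of both Ubash3a regions and of Rhoh lie below the C57BL/6 libraries, and in iNKT17 cells those of Zap70 and Fyb lie above them.

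In Ubash3a both regions lost in Hivep3-/- iNKT2 cells lay inside the gene. The first, chr17:31219982-31220481, whose sequence is shown above, is 381 bp from the start of a short transcript with a retained intron. It stood at 3.64 and 3.51 in C57BL/6 and at 1.44 and 0.66 in Hivep3-/- iNKT2 libraries, and fell by 2.52 ± 0.59 on the log2 scale (adjusted p = 0.0155). In iNKT1 cells its values were high in both genotypes (5.00 and 4.88 in C57BL/6, 5.01 and 4.65 in Hivep3-/-), and in iNKT17 cells it was at 0.10 or less. Without the second Hivep3-/- iNKT2 library the fall was 2.13 and the adjusted p 0.101. The second region, intronic chr17:31210289-31210788, stood at 3.04 and 2.47 in C57BL/6 and at 0.99 and 1.02 in Hivep3-/- iNKT2 libraries and fell by 1.75 ± 0.38 (adjusted p = 0.0116). Without the first C57BL/6 iNKT2 library it fell by 1.46, with an adjusted p of 0.114. With 1 insertion per kb added the second region fell by 1.37, under the 3-fold minimum, and the first by 2.06. With 5 added they fell by 0.75 and 1.25.

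The Rhoh region, chr5:65861043-65861542, covers the start site of the gene. In iNKT2 cells it stood at 3.77 and 3.92 in C57BL/6 and at 1.74 and 2.12 in Hivep3-/- libraries, and fell by 1.92 ± 0.27 (adjusted p = 0.000851). In iNKT1 cells the genotypes overlapped, at 3.48 and 4.08 in C57BL/6 and 3.71 and 4.04 in Hivep3-/- libraries. The iNKT17 values were 2.49 and 2.36 in C57BL/6 and 1.66 and 2.14 in Hivep3-/- libraries. Another start site region of Rhoh, chr5:65863298-65863797, had a mean of 5.72 over all libraries and was called in no comparison.

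The 2 regions gained in iNKT17 cells were low. In Zap70, chr1:36777870-36778369 overlaps a coding exon inside the gene, 615 bp from the start of a short transcript with a retained intron. It stood at 0.57 and 1.38 in C57BL/6 and at 2.30 and 3.40 in Hivep3-/- iNKT17 libraries, a rise of 1.88 ± 0.40 (adjusted p = 0.0291). The same region was at 0.41 and 0.84 in C57BL/6 and 1.74 and 2.00 in Hivep3-/- iNKT2 libraries, where both groups were under the minimum and it was not tested. The Zap70 promoter itself stood between 6.43 and 6.69 in all 12 libraries. In Fyb, intronic chr15:6555500-6555999 stood at 0.49 and 0.82 in C57BL/6 and at 1.66 and 2.83 in Hivep3-/- iNKT17 libraries, a rise of 1.59 ± 0.37 (adjusted p = 0.0421). Without the first C57BL/6 iNKT17 library the adjusted p was 0.236 for Zap70 and 0.255 for Fyb. Without the second Hivep3-/- iNKT17 library neither region reached the minimum. The Hivep3-/- iNKT17 libraries were also those with the fewest distinct low values, and the part of this in the rises was not tested. With 1 insertion per kb added before the logarithm the rises were 1.47 and 1.17, under the 3-fold minimum.

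The change between genotypes itself was compared between subsets. Between iNKT1 and iNKT2 it differed in 9 of 580 member regions (1.55%, against 3.06% of all regions). The largest was the intronic Txk region described above, which stood at 5.73 and 5.80 in C57BL/6 and 5.51 and 5.43 in Hivep3-/- iNKT1 libraries, whereas it went from 2.28 and 2.25 to -0.61 and 0.10 in iNKT2 libraries. The changes differed by 2.22 ± 0.52 (adjusted p = 0.0233), but by 1.36 with 1 insertion per kb added and 0.47 with 5 added, both under the 3-fold minimum, and the Hivep3-/- iNKT2 values were low. The Rhoh start site differed by 2.01 ± 0.38 (adjusted p = 0.0079) in the same direction. In Nfatc2, chr2:168561994-168562493 went the other way, from 2.47 and 2.74 to 1.76 and 1.87 in iNKT1 and from 2.95 and 2.16 to 3.52 and 3.90 in iNKT2 libraries, a difference of -1.95 ± 0.33 (adjusted p = 0.005).

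Between iNKT1 and iNKT17 the change differed in 4 of 589 member regions (0.679%, against 1.42%), and in 8 with the replicate block. Between iNKT2 and iNKT17 it differed in 1 of 569 (0.176%, against 1.02%), and in 2 with the block. The Cd6 intronic region chr19:10816338-10816837, next to the one printed above, was called in both. It stood at 5.37 and 5.16 in C57BL/6 and 4.55 and 4.43 in Hivep3-/- iNKT1 libraries, at 3.86 and 3.08 and at 2.96 and 2.90 in iNKT2, and at 0.49 and 1.11 and at 1.88 and 2.00 in iNKT17. So its 3 subsets lay closer together in Hivep3-/- than in C57BL/6 cells, and the changes differed by -1.91 ± 0.38 between iNKT1 and iNKT17 (adjusted p = 0.0242) and by -1.68 ± 0.38 between iNKT2 and iNKT17 (adjusted p = 0.051). With 1 insertion per kb added these were -1.56 and -1.30, under the 3-fold minimum. Near Rhoh, intronic chr5:65888933-65889432 was at 2.81 and 3.18 in C57BL/6 and at 4.50 and 4.62 in Hivep3-/- iNKT1 libraries, while the iNKT17 libraries stood between 2.99 and 3.15.

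A further 58 genes of the pathway, among them the CD3 chains, the kinase Fyn, the MAP kinases and the NF-kB subunits, held 593 regions. Between genotypes 6 of 535 tested regions were called in iNKT1, all higher in Hivep3-/- cells (1.12%, against 1.15% of all regions). In iNKT2 23 of 542 were called, 16 higher and 7 lower (4.24% against 1.68%), and in iNKT17 13 of 523, all higher (2.49% against 0.271%). The calls lay in 3, 7 and 2 of the 58 genes. Between C57BL/6 iNKT1 and iNKT17, 74 of 551 were called (13.4%, against 20.5% of all regions). Of these, 39 were higher in iNKT1 (9.72% of all regions) and 35 in iNKT17 (10.8%), and the median difference was 0.02.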

How the data were processed

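ATAC-seq libraries of 12 samples (6 groups of 2) were analysed. The deposited table holds log2 insertions per kb in 63309 regions of 500 bp on mm10: the authors trimmed reads (Trimmomatic v0.39 per the labels), aligned them with the ENCODE pipeline, merged peaks with chromVAR, counted Tn5 insertions and normalised with voom. A further normalisation between libraries is not given in the sources used here, but the values have nearly the same quartiles in each library (medians of 3.90), so a global change in accessibility could not be seen, and the sequencing depth of each library is unknown. All 12 columns of values were mapped to samples by name.

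Member genes and 10 kb flanks were placed with GENCODE vM21, and a promoter region lay within 1000 bp of a start site. The members, the lists and the motifs were chosen with earlier results of these data known. Group means were fitted to all 12 libraries with limma v3.58.1 in R v4.3.3 (empirical Bayes with a trend, 6 residual and 7.17 prior degrees of freedom). Regions averaging at least 5 insertions per kb (linear scale) in either group were tested, and p-values were Benjamini-Hochberg adjusted over all of these. A call needed an adjusted p under 0.1 and 3-fold. An exact permutation test of 2 against 2 libraries cannot go below p = 0.333, so none was used. The fit was tested on simulated data.

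Same-numbered libraries deviated together from their group means (r of 0.120 to 0.167 between subsets of a genotype and 0.113 to 0.171 between genotypes of a subset). Groups that share neither subset nor genotype gave 0.091 to 0.174. The number was therefore also fitted as a replicate block. Comparisons of genotypes used a block term shared by both genotypes. Comparisons of subsets and of genotype changes used a separate term for each genotype. Other alternatives were 2-fold, no filter, 1 or 5 insertions per kb added before the logarithm, gene bodies alone, fits to the compared libraries alone and leaving out each library. Named regions were every member called between genotypes or in a difference of genotype changes, the 3 largest calls in each direction per C57BL/6 subset pair, and for each gene its strongest promoter and its largest C57BL/6 subset call. Sequences were read from RefSeq GRCm38.p6 with pysam v0.24.0, and tables and figures were made in Python v3.11.15 with pandas v2.3.3, numpy v2.4.6 and matplotlib v3.10.9.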

Additional observations from a re-analysis of the deposited data

Results flagged for a closer look

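These 14 values are differences between the genotype changes (Hivep3-/- minus C57BL/6) of a pair of subsets, on the log2 scale, and the difference itself passed the limma test at an adjusted p under 0.1 and 3-fold. Comparing iNKT1 with iNKT2, the change was higher in iNKT1 for the Txk intron (2.22), the Rhoh start site (2.01), a Ubash3b intron (1.82), a Malt1 region (1.81), a Nfatc3 region (1.79) and the region upstream of Sh2d2a (1.76). In the Ubash3b intron, chr9:41105270-41105769, iNKT1 libraries went from 4.24 and 4.50 in C57BL/6 to 5.76 and 5.76 in Hivep3-/- mice, and iNKT2 libraries from 4.39 and 4.19 to 3.90 and 3.81. The Sh2d2a upstream region went from 5.38 and 5.47 to 4.88 and 4.64 in iNKT1 and from 1.69 and 2.25 to -0.13 and -0.78 in iNKT2 libraries. The Nfatc3 region lies 126 bp from a start site of Esrp2.

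The change was lower in iNKT1 than in iNKT2 for neighbouring Nfatc2 intronic regions (-1.95 and -1.70) and for a Nck1 region (-1.64). Comparing iNKT1 with iNKT17, the change was higher in iNKT1 for the same Malt1 region (1.87) and a Rhoh intron (1.63), and lower for a Cd6 intron (-1.91) and another Malt1 region (-1.75). The first Malt1 region went from 2.35 and 2.40 to 3.86 and 4.06 in iNKT1 libraries, while the iNKT17 libraries lay between 0.97 and 1.56. Comparing iNKT2 with iNKT17, the change of the same Cd6 intron was lower in iNKT2 (-1.68). The comparisons share libraries.

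With 1 insertion per kb added before the logarithm, 8 of the 14 fell under the 3-fold minimum. These were Txk (1.36), Sh2d2a (0.86), the second Nfatc2 region (-1.46), Nck1 (-1.19), the Rhoh intron (1.51), the second Malt1 region (-1.42) and both Cd6 differences (-1.56 and -1.30). With 5 added none of the 14 reached it, and the Txk and Sh2d2a differences were 0.47 and 0.06.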

How the results depend on the processing

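Counts of called member regions are given for genotype (iNKT1, iNKT2, iNKT17), then for iNKT1 against iNKT2, iNKT1 against iNKT17 and iNKT2 against iNKT17 in each genotype, then for the differences of genotype changes in the same 3 pairs. At 2-fold they were 12, 20 and 7 for genotype, 156, 211 and 152 in C57BL/6, 173, 203 and 131 in Hivep3-/- and 27, 12 and 12 for the differences. With 5 insertions per kb added they were 0 in iNKT2 and 0 in iNKT17 for genotype, 16, 56 and 28 in C57BL/6, 19, 43 and 16 in Hivep3-/- and 0, 0 and 0 for the differences. With 1 added they were 0 for genotype in iNKT17 and 2 for the difference of iNKT1 and iNKT17. Without the filter, genotype gave 6 in iNKT2 and the difference of iNKT2 and iNKT17 gave 3. Gene bodies alone gave 53 for iNKT2 against iNKT17 in C57BL/6, and fits to the compared libraries alone gave 1 for genotype in iNKT17 and 0 for the difference of iNKT2 and iNKT17. With the replicate block the differences were 8 for iNKT1 and iNKT17 and 2 for iNKT2 and iNKT17, and the block moved no other count by over 1.5 times and ended the call of 0 of the 62 named results.

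Leaving out 1 library gave 0 to 3, 3 to 5 and 0 to 4 for genotype, 63 to 76, 130 to 141 and 78 to 88 in C57BL/6, 74 to 80, 111 to 123 and 67 to 68 in Hivep3-/- and 4 to 14, 0 to 7 and 1 to 5 for the differences. For genotype the counts were 3 in iNKT1 without the second C57BL/6 iNKT1 library and 2 without the first Hivep3-/- one, 5 in iNKT2 without the second Hivep3-/- iNKT2 library, and in iNKT17 1 without the first C57BL/6 library, 4 without the first Hivep3-/- one and 0 without the second. For the difference of iNKT1 and iNKT2 the counts were 14 and 4 without the first or the second C57BL/6 iNKT2 library. For that of iNKT1 and iNKT17 they were 0 and 7 without the first or the second C57BL/6 iNKT1 library, 2 and 0 without the Hivep3-/- iNKT1 libraries and 7 without either Hivep3-/- iNKT17 library. For that of iNKT2 and iNKT17 they were 5 and 4 without the Hivep3-/- iNKT17 libraries and 2 without either Hivep3-/- iNKT2 library. Of the named results, 39 of 301 lost their call when 1 library was left out and 3 more could not be tested (Zap70 and Fyb without the second Hivep3-/- iNKT17 library, and the Ptprc intron without the first C57BL/6 iNKT1 library), 12 of 62 with 1 added, 34 of 62 with 5 added and 2 of 62 in fits to the compared libraries alone, and no direction reversed. The C57BL/6 subset calls that fell under the 3-fold minimum with 5 added included those of Malt1 (1.36), Bcl10 (0.99) and Ppp3cc (1.56). Those of Ptpn6 (1.39), Ptpn22 (1.37) and Nfatc3 (-1.31) fell under it too. The cause of these changes was not tested, beyond the smaller folds that an added value gives. Depth is unknown, which limits what low values show.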
